A study of Homo sapiens with 10 samples.

Results

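The genes described here are the human RBM (RNA-binding motif) and HNRNP (heterogeneous nuclear ribonucleoprotein) genes, taken by name from the deposited count table. A gene was a member where its symbol was RBM followed by a number with or without 1 letter, RBMX, RBMS1, RBMS2, RBMS3, or HNRNP followed by letters or digits, and symbols ending as pseudogene names do were left out. This gave 65 members of the 28380 genes in the table, 41 RBM and 24 HNRNP, and left out 84 pseudogene names. The rule used names alone, but it was set with earlier results of these data known.

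Sulforaphane (SFN), an isothiocyanate from cruciferous vegetables, was given for 4 h at 25 µM, as the study's methods state, to RPE-1 cells, and the control cells received the vehicle dimethyl sulfoxide (DMSO). RPE-1 is an established human line of retinal pigment epithelial origin immortalized with telomerase, so all 10 samples derive from 1 line. Each treatment had 5 replicates of 50000 cells in complete medium, and RNA was sequenced as Lexogen QuantSeq libraries, which read the 3′ ends of polyadenylated transcripts. The comparison asks which transcripts changed after acute exposure to SFN, and a 3′-end count sees the amount of a gene's transcripts and not how they were spliced.

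HNRNP proteins coat nascent transcripts in the nucleus and regulate splicing, polyadenylation, export and stability of mRNA. RBM proteins share RNA recognition motifs with them but form no single family: some are parts of the spliceosome or regulate splice site choice, some feed transcripts to the nuclear exosome, the exon junction complex or the N6-methyladenosine writer, some act in the nucleolus, and some bind the 3′ ends of mRNA in the cytoplasm. Many of these genes regulate their own transcripts through exons whose inclusion leads to decay, which couples splicing to the level of the mRNA.

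Of the 65 members, 60 had enough counts to be tested. At 4 h, 13 of the 60 were lowered and 5 were raised by SFN with edgeR's quasi-likelihood test at an adjusted p below 0.05, which is 21.7% and 8.33% of the tested members. Over all 13378 genes tested, 13.9% were lowered and 9.07% were raised. The raised members were RBM23, RBM48, RBM39, HNRNPH2 and HNRNPL, and the lowered members with the largest decreases were RBM43, RBM26, RBM12, RBM12B, RBM38 and RBM4B. The abundant HNRNP genes A1, A2B1, A3, C, D, K, M and U did not pass the test, while HNRNPH1, with a DMSO mean of 939 CPM, was lowered. Without DMSO replicate 1, a library described below, HNRNPU, HNRNPR and HNRNPDL passed too. Their log2 fold changes there were -0.56, -0.26 and 0.24, in a fit that called 22.5% of all genes raised and 23.5% lowered. The median log2 fold change was -0.08 over the tested members and -0.03 over all genes tested, and 23 members had a positive and 37 a negative fold change.

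The decreases lay mostly among the RBM genes. Of 39 tested RBM genes, 11 were lowered and 3 raised, with a median log2 fold change of -0.11, and of 21 tested HNRNP genes 2 were lowered and 2 raised, with a median of -0.03. The difference between these families was not tested. RBM26 and RBM43 were the only members past the threshold with more than a 2-fold change, both lowered, while 5.76% of all genes tested were lowered and 2.94% raised by that much. In 16 of the 18 called members the 5 SFN samples and the 5 DMSO samples did not overlap. Called members were selected for a difference between the groups, so little overlap is built in, and the share among all called genes is not given. Among all 60 tested members, 7 had every SFN sample above every DMSO sample and 13 had every SFN sample below, against 8.78% and 11.1% of all genes tested (19.9% in either direction).

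**Figure D1:**
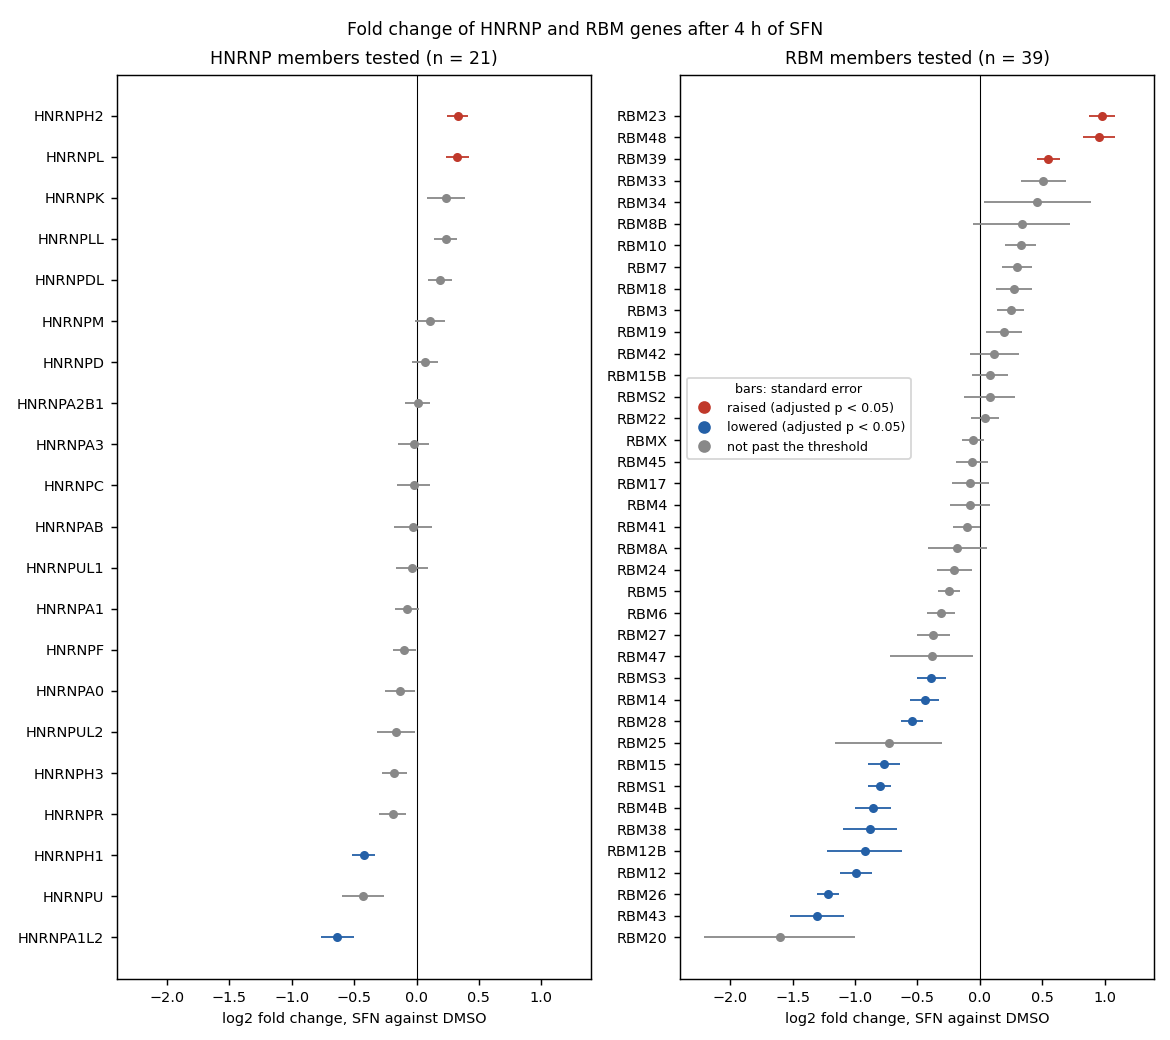
Log2 fold change (SFN against DMSO, x axis) with its standard error for the 21 tested HNRNP genes (left) and the 39 tested RBM genes (right), ordered by fold change. Red points are the 5 raised and blue points the 13 lowered members, grey points did not pass the test, and the HNRNP points reach from -0.63 (HNRNPA1L2) to 0.33 (HNRNPH2) while the RBM points reach from -1.60 (RBM20, not past the threshold) to 0.98 (RBM23).

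Total counts were 15689294 to 20666692 in the DMSO libraries and 12375860 to 17308706 in the SFN libraries. DMSO replicate 1 stood apart from the other DMSO libraries: its mean Spearman correlation with them was 0.935, where the other DMSO libraries had 0.979 to 0.982. Its members deviated from their group means by a root mean square of 0.46 on the log2 scale, against 0.12 to 0.19 in the other DMSO libraries, and members took 1.80% of its counts against 2.10% to 2.27% in the others. RBM25, a splicing factor of the early spliceosome, had 1463 CPM (read counts scaled to the size of each library) in that library and 291 to 373 in the other DMSO libraries, and RBM8A, the Y14 subunit of the exon junction complex, had 304 and 127 to 133. Log2 fold changes that moved with this library are therefore given with and without it. What set the library apart was not tested. The labels do not say that replicates came from separate cultures, so p-values measure the spread between these samples, which may be technical. The retinal pigment epithelium genes MITF (217 to 1210 counts per library), OTX2 (107 to 299) and BEST1 (97 to 1244) were detected, while RPE65 (0 to 3), RLBP1 (0 to 4), TYRP1 (0 to 2) and SERPINF1 (0 to 2) were near 0. The leukocyte gene PTPRC (0 to 6 counts) and the endothelial genes PECAM1 (0 to 9), VWF (0 to 5) and CDH5 (0 to 1) were near 0 too. A change in the CPM of a gene in these bulk samples can be a change in all cells or in some of them, and less RNA per cell and fewer cells with it cannot be told apart.

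**Figure D2:**
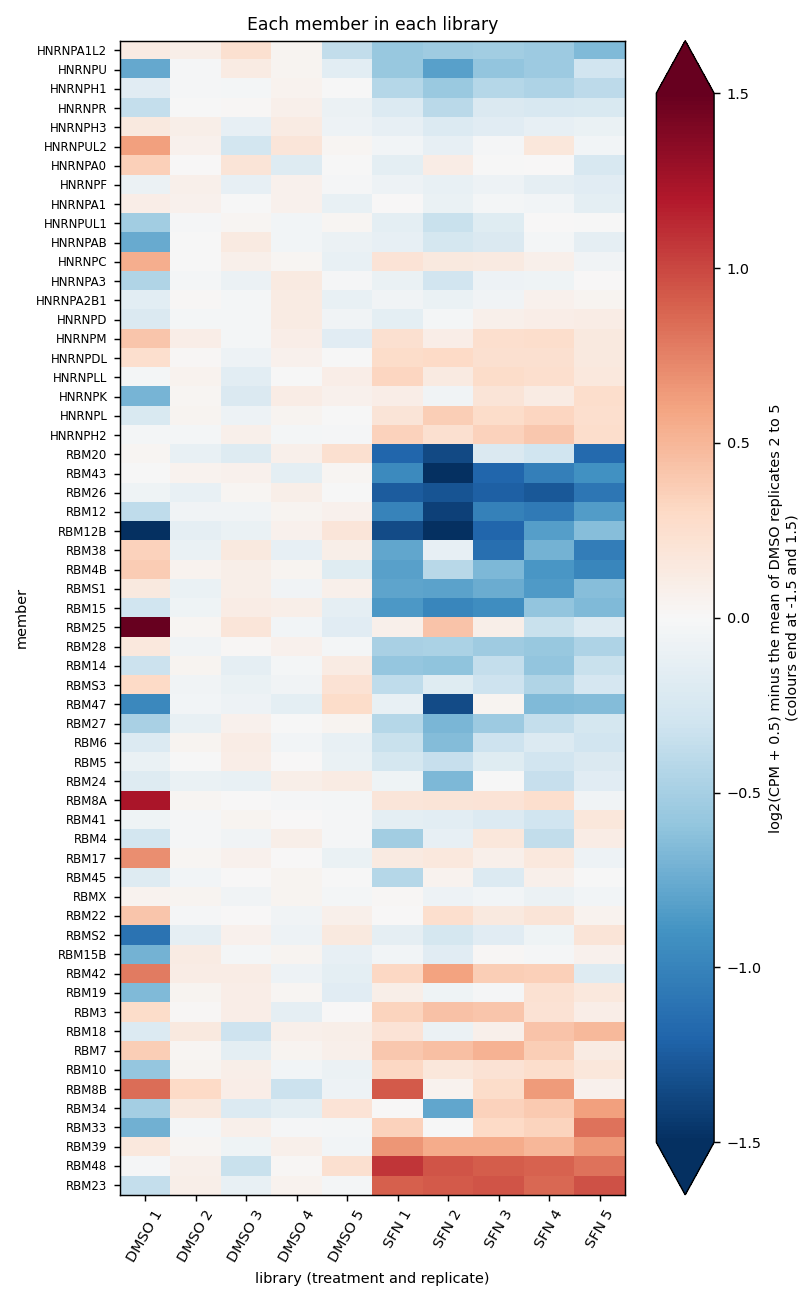
Level of the 60 tested members in each of the 10 libraries (columns), as log2(CPM + 0.5) minus the mean of DMSO replicates 2 to 5, with HNRNP genes above RBM genes and each family ordered by fold change. The column of DMSO replicate 1 differs from the other DMSO columns for RBM25, RBM8A, RBM12B and HNRNPU among others, while RBM26, RBM12 and RBM23 keep 1 colour across the 5 SFN columns.

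Members are described below in classes by role, to be read beside 9.07% raised and 13.9% lowered over all 13378 genes tested. Among the spliceosome-associated RBM proteins and splicing regulators, 3 of 14 tested genes were raised and 1 was lowered, with a median log2 fold change of -0.08. RBM39 and RBM23 are closely related to each other and to the splicing factor U2AF2, and both are targets of the aryl sulfonamides that recruit them to a ubiquitin ligase. RBM23 (chr14:22893204-22919182, minus strand, GRCh38) had 51.9, 70.9, 61.4, 68.6 and 65.00 CPM in DMSO replicates 1 to 5 and 124, 126, 128, 121 and 129 CPM in SFN replicates 1 to 5. The lowest SFN sample stood well above the highest DMSO sample, and the means were 63.6 ± 7.45 and 126 ± 3.12 CPM (SD, n = 5). The edgeR log2 fold change was 0.98 (SE 0.10, adjusted p = 4.4e-05). RBM39 (chr20:35701347-35742312, minus strand) had 379, 345, 323, 357 and 329.8 CPM in DMSO and 535, 497, 498, 476 and 529.8 CPM in SFN. Its groups did not overlap, and its edgeR log2 fold change was 0.55 (SE 0.09, adjusted p = 0.00126). RBM48, which binds ARMC7 in the minor spliceosome, had 8.97, 9.66, 7.100, 9.22 and 10.8 CPM in DMSO and 19.7, 18.03, 17.6, 17.2 and 16.4 CPM in SFN. Every SFN sample of RBM48 was above every DMSO sample, with an edgeR log2 fold change of 0.96 (SE 0.13, adjusted p = 0.000229).

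RBM4B was the lowered gene of this class. It encodes a close copy of RBM4, a regulator of splicing and translation, and the 2 genes lie side by side on chromosome 11. RBM4B (chr11:66664998-66677887, minus strand) had 21.1, 16.8, 17.3, 16.6 and 14.2 CPM in DMSO and 9.001, 11.99, 9.98, 8.57 and 7.98 CPM in SFN. The groups did not overlap, with DMSO replicate 1 the highest sample, and the edgeR log2 fold change was -0.86 (SE 0.15, adjusted p = 0.0013). RBM4 itself had 8.16 to 10.7 CPM in DMSO and 6.79 to 11.3 CPM in SFN, with an edgeR log2 fold change of -0.08 (SE 0.16, adjusted p = 0.784), or -0.14 (SE 0.15) without DMSO replicate 1. The last 400 bases of RBM4 share 100% of their 50-base words with the annotated RBM14-RBM4 readthrough gene, so the RBM4 count is uncertain.

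The other spliceosome-associated members gave no call with all 10 libraries. RBM25, whose DMSO mean was set by DMSO replicate 1, had 291 to 1463 CPM in DMSO and 259.8 to 441 CPM in SFN, and its log2 fold change went from -0.73 (SE 0.43) to 0.02 (SE 0.13) without that library. RBM17, RBM22, RBM41 and RBM42, all found in spliceosomal particles, had log2 fold changes of -0.07, 0.04, -0.11 and 0.12, and none passed. Without DMSO replicate 1 they were 0.09 (SE 0.08), 0.13 (SE 0.08), -0.12 (SE 0.10) and 0.30 (SE 0.13), so the direction of RBM17 rested on that library, and none passed there either. RBM11 was not tested, with 0 to 1 count per library.

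In the hnRNP C, F/H, K, L, M, R and U class together with RBMX, 2 of 14 tested genes were raised and 1 was lowered, with a median log2 fold change of -0.05. HNRNPH1 and HNRNPH2 encode nearly identical proteins that bind G-rich RNA, and the 2 transcripts moved in opposite directions. HNRNPH1 (chr5:179614178-179634784, minus strand) had 851, 948, 943, 998 and 957 CPM in DMSO and 712, 652, 714, 696 and 729.5 CPM in SFN. Every SFN sample was below every DMSO sample, and the edgeR log2 fold change was -0.42 (SE 0.09, adjusted p = 0.00671). HNRNPH2 had 92.1, 92.4, 99.1, 92.05 and 92.6 CPM in DMSO and 119, 111, 120.0, 125 and 113 CPM in SFN. Here every SFN sample was above every DMSO sample, and the edgeR log2 fold change was 0.33 (SE 0.08, adjusted p = 0.0141). HNRNPL, which binds CA repeats, had 151, 182, 167, 181 and 176 CPM in DMSO and 202, 228, 214, 220.2 and 209.8 CPM in SFN. The lowest SFN sample was above the highest DMSO sample, and the edgeR log2 fold change was 0.33 (SE 0.09, adjusted p = 0.0251). HNRNPL passed the test in 15 of 22 alternative analyses and HNRNPH2 in 19, while HNRNPH1 passed in all 22.

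With all 10 libraries most of the abundant hnRNP genes did not pass the test. Since QuantSeq libraries hold about 1 fragment per transcript, CPM were not divided by length. Of 17 HNRNP genes with a DMSO mean of at least 100 CPM, HNRNPH1 and HNRNPL passed the test, and of all 25 tested members at that level 5 did. Over all genes tested, of any level, 23% passed. Without DMSO replicate 1 the abundant genes HNRNPU, HNRNPR and HNRNPDL passed too, and they are described below. HNRNPC, which binds U-rich RNA, had 744 to 1167 CPM in DMSO and 771 to 922 CPM in SFN, with an edgeR log2 fold change of -0.02 (SE 0.13) that turned to 0.10 (SE 0.08) without DMSO replicate 1. HNRNPK, which binds C-rich RNA, had 682 to 1202 CPM in DMSO and 1070.0 to 1328 CPM in SFN, with a log2 fold change of 0.24 (SE 0.15), or 0.12 (SE 0.09) without DMSO replicate 1. HNRNPM, HNRNPF, HNRNPH3, HNRNPUL1, HNRNPUL2 and RBMX had log2 fold changes of 0.11, -0.10, -0.18, -0.04, -0.16 and -0.05, and their groups overlapped. Without DMSO replicate 1 HNRNPM was at 0.19, HNRNPUL1 at -0.13 and HNRNPUL2 at -0.02. HNRNPCL1, HNRNPCL2 and HNRNPCL4, copies of HNRNPC, were not tested, with at most 4 counts in any library.

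In the hnRNP A/B class with HNRNPD and HNRNPDL, which hold the core particle proteins and the binders of AU-rich RNA, 1 of 8 tested genes was lowered and 0 raised, with a median log2 fold change of -0.03. HNRNPA1, a repressor of exon inclusion, had 2810.0, 2740.0, 2610.0, 2748 and 2437 CPM in DMSO and 2642, 2462, 2584, 2557 and 2381 CPM in SFN. HNRNPA2B1, its relative, had 2601, 2941, 2845, 3147 and 2691 CPM in DMSO and 2791, 2704, 2791, 3042 and 2983 CPM in SFN. Both groups of samples overlapped for each gene, and the edgeR log2 fold changes were -0.08 (SE 0.10, adjusted p = 0.614) for HNRNPA1 and 0.01 (SE 0.10, adjusted p = 0.965) for HNRNPA2B1. HNRNPA0, HNRNPA3, HNRNPAB and HNRNPD had log2 fold changes of -0.13, -0.02, -0.03 and 0.07. Without DMSO replicate 1 they were -0.06, -0.11, -0.16 and 0.02, and HNRNPA2B1 turned to -0.03. The 3′ exon of HNRNPA3 is overlapped on the opposite strand by NFE2L2, the gene of the NRF2 transcription factor, and it is not given whether counting used strand. The lowered gene was HNRNPA1L2, an HNRNPA1-like gene, with 13.5, 13.1, 14.7, 12.7 and 9.41 CPM in DMSO and 8.17, 8.37, 8.41, 8.300 and 7.63 CPM in SFN. Its groups did not overlap, and its edgeR log2 fold change was -0.63 (SE 0.13, adjusted p = 0.00459). All 50-base words of its last 400 bases occur in other genes, so this count is uncertain. These include HNRNPA1 and an unnamed long non-coding RNA gene that overlaps HNRNPA1L2 on the same strand (0 to 8 counts per library).

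Among the members of nuclear RNA surveillance, the exon junction complex and the N6-methyladenosine writer, 2 of 7 tested genes were lowered and 0 raised, with a median log2 fold change of -0.18. RBM26 and its relative RBM27 connect the nuclear exosome to polyadenylated transcripts, and RBM15 brings the methyltransferase complex to RNA. RBM26 (chr13:79311824-79406477, minus strand) had 116, 113, 124, 129 and 121 CPM in DMSO and 50.96, 49.2, 51.5, 49.9 and 57.2 CPM in SFN. The means were 120.4 ± 6.29 and 51.7 ± 3.17 CPM (SD, n = 5), and the lowest DMSO sample was nearly at a 2-fold distance from the highest SFN sample. RBM26 had the smallest p of the members, with an edgeR log2 fold change of -1.22 (SE 0.09, adjusted p = 3.36e-06). RBM15 (chr1:110338506-110346681, plus strand) had 16.1, 19.1, 21.6, 21.2 and 18.1 CPM in DMSO and 10.7, 9.84, 10.2, 13.1 and 12.4 CPM in SFN. Its groups did not overlap, and its edgeR log2 fold change was -0.77 (SE 0.13, adjusted p = 0.00112). The RBM15 relative RBM15B had 51.3 to 91.6 CPM in DMSO and 74.7 to 88.3 CPM in SFN, with a log2 fold change of 0.09 (SE 0.15) that turned to -0.04 without DMSO replicate 1. The 3′ exon of RBM15B is overlapped on the opposite strand by DCAF1 (360 to 1201 counts per library, log2 fold change -0.36, SE 0.23). Strand use in counting is not given. RBM8A had a log2 fold change of -0.18 (SE 0.24) with all libraries and of 0.16 (SE 0.08) without DMSO replicate 1, so its direction rested on that library.

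Of the 3 nucleolar members of ribosome assembly, RBM28 was lowered. It had 79.9, 68.8, 72.5, 74.9 and 69.8 CPM in DMSO and 50.7, 51.3, 49.4, 47.98 and 51.9 CPM in SFN. Every SFN sample was below every DMSO sample, and the edgeR log2 fold change was -0.54 (SE 0.09, adjusted p = 0.000914). In the last 400 bases of RBM28, 45.3% of the 50-base words also occur in other genes. RBM19 (log2 fold change 0.19, SE 0.14) and RBM34 (log2 fold change 0.46, SE 0.43, under 1 CPM in the mean of both groups) did not pass, and without DMSO replicate 1 they were at 0.08 and 0.31. The 3′ exon of RBM34 is overlapped on the same strand by ARID4B (1684 to 4939 counts per library). Of the 50-base words in the last 400 bases of RBM34, 24.5% occur in other genes, so its low count is uncertain.

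Of the 9 tested members that act in the cytoplasm, bind 3′ ends, set mRNA stability or respond to cold, 4 were lowered and 0 raised, with a median log2 fold change of -0.38. RBMS1 and RBMS3 encode single-strand-binding proteins that attach to the 3′ ends of mRNA, and RBM38, a p53 target, stabilizes CDKN1A mRNA. RBMS1 (chr2:160272151-160493807, minus strand) had 93.1, 78.2, 89.00, 80.7 and 88.4 CPM in DMSO and 48.5, 47.8, 49.8, 46.2 and 53.95 CPM in SFN. Every SFN sample lay below every DMSO sample, and the edgeR log2 fold change was -0.80 (SE 0.09, adjusted p = 9.5e-05). RBMS3 had 38.2, 29.8, 28.8, 29.7 and 36.05 CPM in DMSO and 23.6, 27.3, 24.9, 22.5 and 25.9 CPM in SFN. Its groups did not overlap, the edgeR log2 fold change was -0.39 (SE 0.12, adjusted p = 0.0318), and it passed in 15 of 22 alternatives. RBMS2, in contrast, had 17.4 to 42.03 CPM in DMSO and 31.4 to 43.5 CPM in SFN, with a log2 fold change of 0.08 (SE 0.21) that turned to -0.09 without DMSO replicate 1. The 3′ exon of RBMS2 is overlapped on the opposite strand by BAZ2A (540 to 1795 counts per library). BAZ2A was lowered (edgeR log2 fold change -0.43, SE 0.14, adjusted p = 0.0486). Whether counting used strand is not given, so the RBMS2 count is uncertain.

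RBM43 and RBM38 were scarce. RBM43 (chr2:151247940-151261863, minus strand) had 6.23, 6.52, 6.597, 5.602 and 6.39 CPM in DMSO and 2.98, 1.21, 2.46, 2.83 and 3.11 CPM in SFN, on 14 to 143 counts per library. Every SFN sample was below every DMSO sample, and the edgeR log2 fold change was -1.30 (SE 0.22, adjusted p = 0.00108). RBM38 had 7.97, 5.696, 6.88, 5.602 and 6.57 CPM in DMSO and 3.398, 5.61, 2.53, 3.58 and 2.75 CPM in SFN. SFN replicate 2 reached the level of DMSO replicate 4, so the groups overlapped, and the edgeR log2 fold change was -0.88 (SE 0.22, adjusted p = 0.0123). RBM24, RBM45 and RBM47 had log2 fold changes of -0.21, -0.06 and -0.38, none past the test, with RBM45 at -0.11 without DMSO replicate 1, and RBM44 was not tested, with 0 to 15 counts per library.

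Of the 5 members of other or less defined role, 3 were lowered and 0 raised. RBM12 and RBM12B are related genes, each with most of the protein-coding sequence in 1 long exon, and RBM14 is a paraspeckle protein and coactivator. RBM12 (chr20:35648925-35664956, minus strand) had 104, 131, 131, 139 and 141 CPM in DMSO and 67.1, 50.9, 66.9, 64.4 and 75.3 CPM in SFN. Its groups did not overlap although DMSO replicate 1 was the lowest DMSO sample, and the edgeR log2 fold change was -0.99 (SE 0.13, adjusted p = 0.000176). The 3′ exon of RBM12 is overlapped on the same strand by CPNE1, whose own edgeR log2 fold change was 0.40 (SE 0.12, adjusted p = 0.0287), in the other direction. RBM12B had 19.4, 50.8, 51.9, 58.2 and 63.3 CPM in DMSO and 21.8, 15.7, 24.1, 31.3 and 35.6 CPM in SFN. DMSO replicate 1 fell among the SFN samples and the 4 other DMSO samples stood above them all. With all libraries the edgeR log2 fold change of RBM12B was -0.92 (SE 0.30, adjusted p = 0.0447), and without DMSO replicate 1 it was -1.13 (SE 0.18). RBM12B passed in 12 of 22 alternatives. The 3′ exon of RBM12B is overlapped on the opposite strand by CIBAR1 (580 to 1079 counts per library, log2 fold change -0.03). Whether counting used strand is not given. RBM14 had 19.2, 24.7, 21.8, 23.6 and 26.3 CPM in DMSO and 15.97, 15.6, 18.7, 15.8 and 18.99 CPM in SFN. Its highest SFN sample lay just under the lowest DMSO sample, DMSO replicate 1, and the edgeR log2 fold change was -0.44 (SE 0.12, adjusted p = 0.0191). RBM18 (log2 fold change 0.27) and RBM8B (log2 fold change 0.34, annotated by GENCODE as a processed pseudogene, and at 0.66 without DMSO replicate 1) did not pass.

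**Figure D3:**
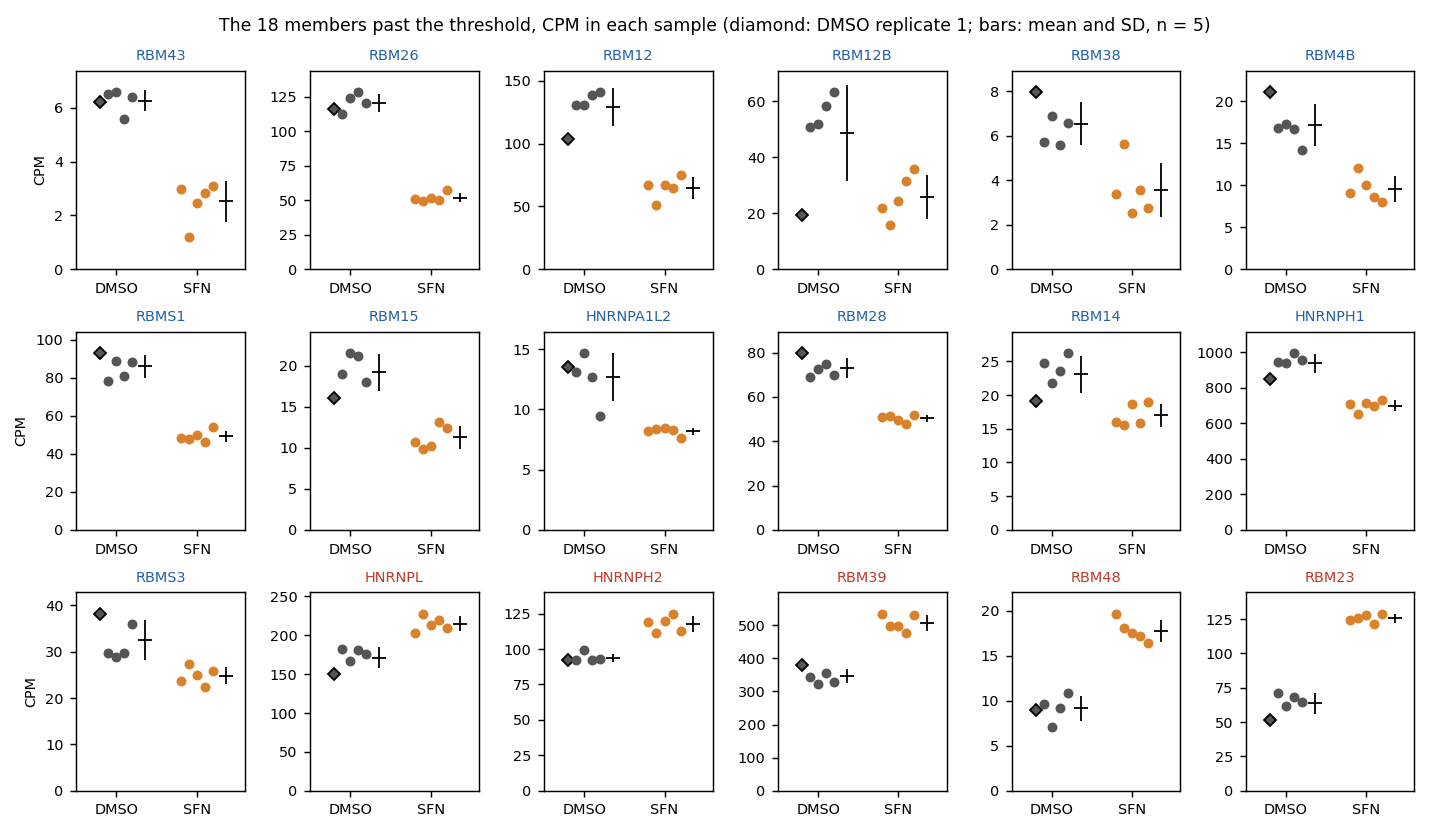
CPM of the 18 members past the threshold in each sample, with DMSO samples in grey and SFN samples in orange, the diamond marking DMSO replicate 1 and the bars the mean and SD (n = 5). Blue names are lowered and red names raised, each axis starts at 0, and the groups overlap only for RBM38 and RBM12B.

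Leaving out DMSO replicate 1 raised the number of called members from 18 to 30, with 11 raised and 19 lowered, while the same step raised the calls over all genes to 22.5% raised and 23.5% lowered. All 18 members called with 10 libraries were still called, 12 were gained and 0 were lost. Of the gained members 8 were RBM and 4 were HNRNP genes, and 6 rose and 6 fell. For the gained members, CPM are given for all 10 libraries and log2 fold changes are from edgeR without DMSO replicate 1, that is with 4 DMSO and 5 SFN samples.

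The gained decreases included HNRNPU, the most abundant of them, a scaffold protein that binds chromatin and RNA. HNRNPU had 915, 1543, 1698, 1608 and 1401 CPM in DMSO replicates 1 to 5 and 1055, 885, 1031, 1066 and 1278 CPM in SFN replicates 1 to 5. DMSO replicate 1 lay among the SFN samples and the 4 others lay above them all, and the log2 fold change was -0.56 (SE 0.10) without it and -0.43 (SE 0.17, adjusted p = 0.0893) with it by edgeR. HNRNPR, which is related to SYNCRIP, had 591, 750.2, 767, 795 and 709 CPM in DMSO and 657, 569, 649, 640.4 and 646 CPM in SFN, with a log2 fold change of -0.26 (SE 0.08). RBM27, the relative of RBM26, had 19.2, 25.1, 28.5, 27.1 and 27.9 CPM in DMSO and 20.03, 16.7, 18.4, 21.1 and 22.4 CPM in SFN, with a log2 fold change of -0.46 (SE 0.10). In both genes DMSO replicate 1 was the lowest DMSO sample and fell inside the range of SFN.

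RBM5 and RBM6 are neighbouring splicing regulators on chromosome 3. RBM5 had 78.8, 84.02, 90.7, 85.1 and 78.9 CPM in DMSO and 70.2, 66.3, 74.8, 69.03 and 72.7 CPM in SFN, with a log2 fold change of -0.27 (SE 0.08). RBM6 had 81.4, 96.5, 102, 91.7 and 87.4 CPM in DMSO and 74.6, 60.04, 76.03, 81.6 and 77.4 CPM in SFN, with a log2 fold change of -0.36 (SE 0.10). The groups were apart for RBM5 in all 10 samples, while for RBM6 SFN replicate 4 lay above DMSO replicate 1. RBM20, a splicing regulator of titin in the heart, had only 13, 15, 11, 14 and 17 counts in DMSO replicates 1 to 5 and 1, 0, 8, 8 and 1 counts in SFN replicates 1 to 5, with a log2 fold change of -1.59 (SE 0.60). At such counts the size of the change is poorly determined.

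The gained increases had log2 fold changes of 0.22 to 0.38. RBM10, a splicing regulator related to RBM5, had 47.9, 73.8, 76.4, 69.6 and 67.5 CPM in DMSO and 89.4, 80.8, 83.8, 86.1 and 80.99 CPM in SFN, with a log2 fold change of 0.22 (SE 0.08). RBM33, which has been linked to the removal of N6-methyladenosine, had 27.3, 44.4, 47.6, 44.7 and 44.3 CPM in DMSO and 57.8, 45.1, 55.7, 57.4 and 80.2 CPM in SFN, with a log2 fold change of 0.38 (SE 0.13). In RBM10 the groups were apart, and in RBM33 the lowest SFN sample lay within the range of DMSO. RBM7, which brings transcripts to the nuclear exosome, had 48.2, 38.1, 33.6, 38.4 and 39.4 CPM in DMSO and 49.7, 50.99, 53.8, 48.2 and 40.7 CPM in SFN, with a log2 fold change of 0.38 (SE 0.10). RBM3, a cold-shock protein, had 239.8, 201, 212, 181 and 199 CPM in DMSO and 250.1, 269.8, 264, 230.2 and 212 CPM in SFN, with a log2 fold change of 0.30 (SE 0.09). In both genes DMSO replicate 1 was the highest DMSO sample and lay within the range of SFN. All 50-base words of the last 400 bases of RBM3 also occur in an unnamed gene that overlaps it on the same strand and was raised (edgeR log2 fold change 1.10, SE 0.33, adjusted p = 0.0309, on 9 to 50 counts per library), so the RBM3 count is uncertain. HNRNPDL had 771, 655, 617, 679 and 645 CPM in DMSO and 787, 797, 768, 768 and 719.5 CPM in SFN, with a log2 fold change of 0.24 (SE 0.07). HNRNPLL had 58.7, 62.4, 53.8, 59.5 and 64.5 CPM in DMSO and 74.99, 65.6, 72.4, 71.5 and 66.7 CPM in SFN, with a log2 fold change of 0.22 (SE 0.08), and these are the relatives of HNRNPD and HNRNPL. Each of the 12 gained members passed in 2 to 7 of the alternatives, so their calls depend on the analysis more than those of RBM26, RBM23, RBMS1, RBM12, RBM48 and RBM28, which passed in every one.

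**Figure D4:**
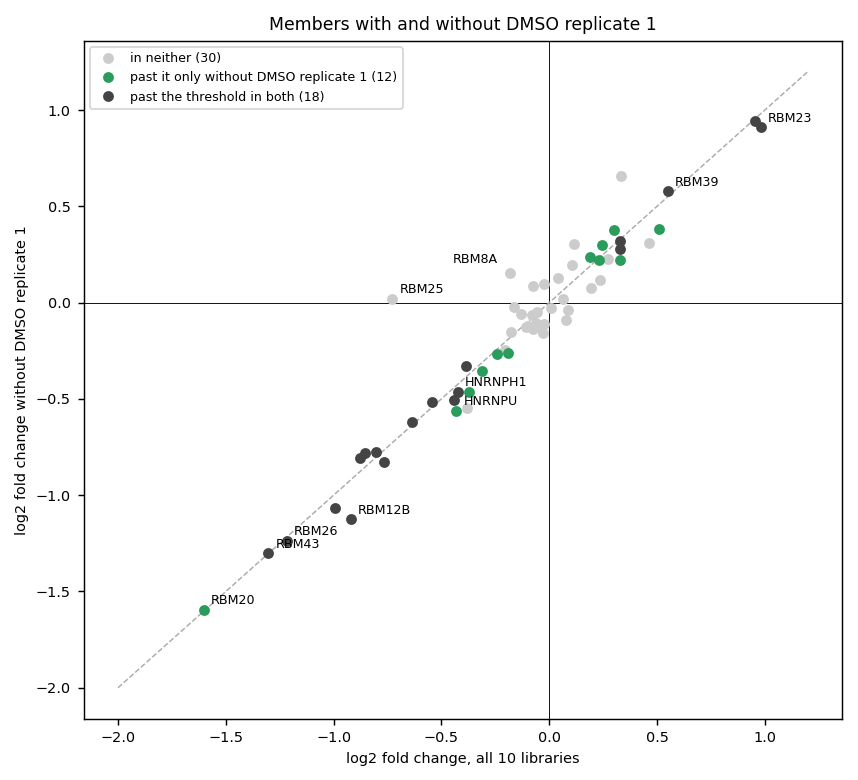
Log2 fold change of the 60 tested members with all 10 libraries (x axis) and without DMSO replicate 1 (y axis), with the dashed line marking equal values. Dark points are the 18 members past the threshold in both, green points the 12 past it only without that library and pale points the 30 in neither, and RBM25 moves from -0.73 to 0.02.

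Several called members have a related gene that did not pass the test. In other pairs both genes or neither passed with all 10 libraries. The ratio of 2 related genes was computed within each library, as the log2 of their counts after adding 0.5. The 12 pairs were chosen after the values were known, so the ratios are a description. A test that permuted the group labels was run on them, but for that reason its p-values are not given. HNRNPH1 against HNRNPH2 went from 3.32 ± 0.09 in DMSO to 2.57 ± 0.08 in SFN (SD, n = 5), a difference of -0.75. The difference was -0.85 for RBM26 against RBM27, -0.88 for RBM15 against RBM15B, -0.94 for RBMS1 against RBMS2 and -0.76 for RBM4B against RBM4. It was 0.44 for RBM23 against RBM39 and 0.59 for RBM10 against RBM5. In these 7 of the 12 pairs the groups did not overlap. All of them but RBM10 against RBM5 hold a member called in these same data, so separation was partly built in. The share over other pairs of genes was not computed, so the count is no result about related genes. Without DMSO replicate 1 the differences of the 7 pairs were, in the same order, -0.78, -0.77, -0.80, -0.68, -0.62, 0.34 and 0.49. The ratio does not depend on library scaling, and it does not tell which of the genes changed.

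In the other 5 pairs the groups overlapped. HNRNPL against HNRNPLL differed by 0.10 with all libraries and by 0.06 without DMSO replicate 1, HNRNPD against HNRNPDL by -0.13 and -0.22, and RBM38 against RBM24 by -0.69 and -0.58. The direction of the remaining pairs rested on DMSO replicate 1: HNRNPUL1 against HNRNPUL2 turned from 0.11 to -0.12 without it, and RBM12 against RBM12B from -0.12 to 0.10.

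**Figure D5:**
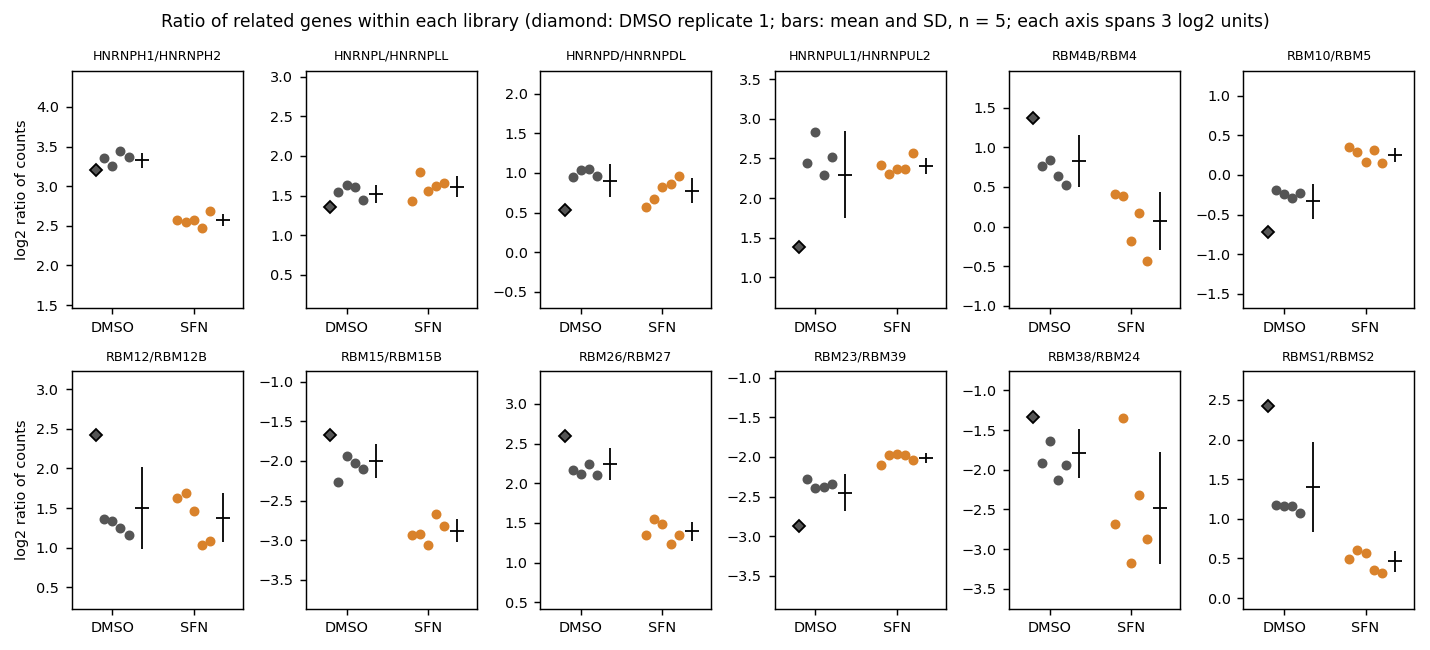
Log2 ratio of the counts of 2 related genes within each library for the 12 pairs, DMSO samples in grey and SFN samples in orange, with the diamond marking DMSO replicate 1, bars the mean and SD (n = 5), and each axis spanning 3 log2 units. HNRNPH1/HNRNPH2, RBM26/RBM27, RBM15/RBM15B and RBMS1/RBMS2 are lower in every SFN sample, and HNRNPL/HNRNPLL and HNRNPUL1/HNRNPUL2 overlap.

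Promoters were read for members that moved and for HNRNPA2B1, which carries the same element as RBM23. The 250 bases before the RefSeq start (GRCh38.p14) were searched on both strands for a heat shock element (GAA, TTC and GAA with 2 bases between each), bound by heat shock factors, an antioxidant response element, TGACNNNGC, bound by NRF2, a C/EBP-ATF element, TGATGNAA, bound by ATF4, a cyclic AMP response element, TGACGTCA, and an ETS site, CCGGAAGT. These letters were chosen from general knowledge of stress-responsive and common promoter elements, and the antioxidant and cyclic AMP elements share their first 4 letters. A promoter was found for 59 of the 65 members, and RBM39, RBM12B, HNRNPA1, RBM43, RBM8B and RBM48 had no entry. The promoters of RBM23 and HNRNPA2B1 hold the heat shock element, which occurs in 0.441% of 35116 promoters in the table. The bases in capitals mark the element, in HNRNPA2B1 after an antioxidant element that is in capitals too.

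RBM23, chr14:22919150-22919399, minus strand: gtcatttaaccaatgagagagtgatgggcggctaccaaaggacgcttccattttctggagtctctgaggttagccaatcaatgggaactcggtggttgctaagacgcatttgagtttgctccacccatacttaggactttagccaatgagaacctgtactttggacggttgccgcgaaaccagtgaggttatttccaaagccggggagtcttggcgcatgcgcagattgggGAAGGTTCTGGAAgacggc
HNRNPA2B1, chr7:26200747-26200996, minus strand: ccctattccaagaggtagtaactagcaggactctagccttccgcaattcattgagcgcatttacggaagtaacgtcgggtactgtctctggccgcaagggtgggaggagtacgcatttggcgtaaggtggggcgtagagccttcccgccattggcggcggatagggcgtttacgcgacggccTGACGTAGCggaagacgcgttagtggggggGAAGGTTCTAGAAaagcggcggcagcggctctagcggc

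In RBM23 the element lies a few bases before the start, and the transcript rose in all 5 SFN samples. HNRNPA2B1, with the same element at the same side of the start, had a log2 fold change of 0.01. Of the raised members 3 had a promoter to search, and 1 held this element. Whether the element bears on either transcript was not tested. Members were counted by gene, with a match in any of its promoters, while the shares are of single promoters, so these are unlike measures. The antioxidant element was found in 11 of the 59 members, against 10.9% of all promoters. Of the called members only RBM4B, which was lowered, held it, at 2 places. The cyclic AMP element was found in 3 of the 59, RBM12, RBM18 and RBM42, against 1.65% of all promoters. The ETS site was found in 5 of the 59, against 3.42%. RBM12 held both, in capitals below in the order ETS, on the other strand, and cyclic AMP element. The C/EBP-ATF element was found in 0 of the 59, against 3.14%. RBM26 is shown as the member with the smallest p, and none of the 5 sets of letters was found in it. Such matches describe the sequence and are not evidence of binding.

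RBM4B, chr11:66677888-66678137, minus strand: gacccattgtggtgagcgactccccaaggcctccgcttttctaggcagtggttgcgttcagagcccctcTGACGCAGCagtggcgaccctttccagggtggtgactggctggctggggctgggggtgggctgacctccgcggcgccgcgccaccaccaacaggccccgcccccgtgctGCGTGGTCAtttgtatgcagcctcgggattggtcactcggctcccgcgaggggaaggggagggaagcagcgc
RBM12, chr20:35664901-35665150, minus strand: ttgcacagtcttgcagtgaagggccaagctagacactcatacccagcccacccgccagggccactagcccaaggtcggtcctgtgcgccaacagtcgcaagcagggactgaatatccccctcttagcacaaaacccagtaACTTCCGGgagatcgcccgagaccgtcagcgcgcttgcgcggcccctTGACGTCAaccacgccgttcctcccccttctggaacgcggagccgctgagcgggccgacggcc
RBM26, chr13:79406256-79406505, minus strand: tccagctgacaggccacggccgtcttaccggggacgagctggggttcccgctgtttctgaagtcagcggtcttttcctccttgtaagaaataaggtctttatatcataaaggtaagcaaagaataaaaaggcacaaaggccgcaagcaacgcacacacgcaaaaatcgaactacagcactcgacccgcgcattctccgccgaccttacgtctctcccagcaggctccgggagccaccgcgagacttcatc

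RBM12 and RBM39 both lie on the minus strand of chromosome 20 and moved in opposite directions. On GRCh38 the highest coordinate of RBM12 is 35664956 and the lowest of RBM39 is 35701347.

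The other genes of the same machinery were described from lists of known components. Their counts stand beside 9.07% raised and 13.9% lowered over all genes tested. Among hnRNP proteins and close relatives under other names, 2 of 12 tested genes were raised and 2 lowered (16.7% each), with a median log2 fold change of -0.05. RBMXL1, a retrocopy of RBMX, had an edgeR log2 fold change of -1.21 (SE 0.18, adjusted p = 0.00057), and SYNCRIP, also called hnRNP Q, of -0.52 (SE 0.11, adjusted p = 0.00463). RBMX itself shares 8.26% of the 50-base words of its last 400 bases with RBMXL1 and had a log2 fold change of -0.05. Among other splicing regulators, 1 of 28 was raised (3.57%) and 3 lowered (10.7%), with a median of 0.03. PNN, a nuclear speckle and desmosome-associated protein, had an edgeR log2 fold change of -0.68 (SE 0.11, adjusted p = 0.0011), and MBNL2, a muscleblind splicing regulator, of 0.91 (SE 0.17, adjusted p = 0.0026).

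Among 58 core spliceosome genes, 5 were raised (8.62%) and 3 lowered (5.17%), with a median log2 fold change of -0.05. Over all genes tested 9.07% were raised and 13.9% lowered. Without DMSO replicate 1 the core counts were 21 and 10, while 22.5% and 23.5% of all genes were raised and lowered. SNRNP35, a protein of the minor spliceosome, had an edgeR log2 fold change of -1.58 (SE 0.22, adjusted p = 0.000315), and CDC5L, of the PRPF19 complex, of -0.58 (SE 0.11, adjusted p = 0.00267). Among 26 partners of RBM proteins in the exon junction, exosome adaptor and N6-methyladenosine writer complexes and factors of nonsense-mediated decay, 1 was raised (3.85%) and 4 were lowered (15.4%), with a median of -0.08. METTL14, the partner of the METTL3 methyltransferase that RBM15 recruits, had an edgeR log2 fold change of -0.69 (SE 0.13, adjusted p = 0.00251). ZCCHC8, the scaffold that holds RBM7 to the exosome helicase MTREX, had an edgeR log2 fold change of 0.56 (SE 0.12, adjusted p = 0.00485).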

How the data were processed

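RNA from 5 DMSO and 5 SFN samples of RPE-1 cells was sequenced as QuantSeq 3′ libraries. The authors deposited raw read counts per gene for each sample, and these counts were used as they stand. The study's methods name the Bluebee pipeline, and the submitters' processing notes name FastQC, STAR, featureCounts and edgeR with hg38 and GRCh38, with no versions or roles. Whether counting used strand or molecular identifiers is not given in the sources used here.

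Genes were filtered by filterByExpr on the groups, scaled by TMM and tested with edgeR 4.0.16 (R 4.3.3) by the quasi-likelihood test over all 13378 genes that passed, with Benjamini-Hochberg adjustment and a threshold of 0.05. A member with too few counts for the filter was not tested. CPM are counts scaled to the TMM-adjusted library size. The SE was derived from the F value of each log2 fold change. Groups came from the labels, and the replicate numbers were treated as names, although the study's methods mention repeated measures, since the labels give no pairing: correlations of deviations between same-numbered DMSO and SFN samples were 0.05, -0.33, -0.08, 0.05 and 0.56. No pair of replicates differed by so little that it looked like 1 library given 2 times (chi-square per degree of freedom at least 3.70). Alternatives used DESeq2 1.42.0, limma 3.58.1, other scalings and filters, a replicate block and leaving out each sample. Code was tested on simulated data. Positions and 3′ ends came from GENCODE on GRCh38, and promoters from RefSeq (GRCh38.p14).

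The members and the lists of related genes were chosen with earlier results of these data known. Named genes were the members past the threshold, those gained or lost without DMSO replicate 1, and the 2 genes of smallest p in each list. Other genes are named only where they overlap a member or share its sequence.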

Additional observations from a re-analysis of the deposited data

Results flagged for a closer look

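Each member's 5 samples were searched for 1 sample far from the others, by the gap to its nearest neighbour as a share of the group's range, with Dixon's critical value for 5 samples as the limit. Of 120 groups, 14 passed, where chance gives about 6. In 10 of the 14 the sample was DMSO replicate 1, which was the highest DMSO sample in 6 and the lowest in 4.

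DMSO replicate 1 was the highest for RBM8A (gap share 0.965), RBM25 (0.930), RBM17 (0.841), RBM42 (0.786), RBM22 (0.760) and HNRNPC (0.757). It was the lowest for RBM33 (0.835), HNRNPUL1 (0.830), RBM12 (0.718) and RBM12B (0.716). The other groups were HNRNPH2, where DMSO replicate 3 was the highest DMSO sample (0.917), HNRNPR, where SFN replicate 2 was the lowest SFN sample (0.817), RBM8A, where SFN replicate 5 was the lowest (0.734), and RBM26, where SFN replicate 5 was the highest (0.714). For RBM26 that sample still lay below every DMSO sample.

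Among the pseudogene names left out of the members, 12 could be tested and 1 passed: HNRNPCP1 rose with a log2 fold change of 0.95 (SE 0.17, edgeR adjusted p = 0.00188), from 3.31 to 5.67 CPM in DMSO and 6.38 to 9.597 CPM in SFN. It lies at chr14:58521223-58521988 (GRCh38) inside KIAA0586 on the same strand, and all 50-base words of its 3′ end occur in other genes, so the origin of these counts is uncertain. KIAA0586 had a log2 fold change of 0.03 (edgeR adjusted p = 0.937).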

How the results depend on the processing

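Over 22 alternatives, 13 of the 18 called members passed the threshold wherever they were tested. The exceptions were HNRNPH2 (passed in 19), RBM14 (17), HNRNPL (15), RBMS3 (15) and RBM12B (12), and their direction did not turn. Leaving out each sample in turn gave 4 to 11 raised and 10 to 19 lowered members, 0 to 1 raised and 2 to 5 lowered over 2-fold, and a member median of -0.09 to -0.06. Over all genes these fits called 6.66% to 22.5% raised and 10.8% to 23.5% lowered. The 11 raised and 19 lowered members and the 5 lowered over 2-fold came without DMSO replicate 1, 4 lowered over 2-fold came without SFN replicate 3 or 5, and 1 raised over 2-fold came without DMSO replicate 2, 4 or 5. For the lists, in the order raised and lowered, it gave 1 to 3 and 2 to 3 of the hnRNP relatives, 1 to 3 and 1 to 6 of the other splicing regulators, 3 to 21 and 2 to 10 of the core spliceosome, and 1 to 4 and 1 to 5 of the partners. The highest raised and lowered counts of the splicing regulators and core genes and the highest raised count of the partners came without DMSO replicate 1, while 8 of the 9 other samples, left out singly, took the partners lowered from 4 to 1 or 2 and all 9 took the hnRNP relatives raised from 2 to 1.

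With library size alone, which moves the median of all genes to -0.11, 3 members were raised at any size and 13 lowered at any size, of which 4 were lowered over 2-fold, with a member median of -0.16, 1 hnRNP relative raised, 5 splicing regulators lowered and 2 core genes raised. Over all genes 6.12% were raised and 16.2% lowered with it. Upper-quartile factors gave 1 hnRNP relative and 3 core genes raised, and DESeq2 factors gave 2 partners raised. The DESeq2 test gave 9 members raised, beside 12.2% of all genes, 5 splicing regulators lowered and 3 partners raised. With limma-voom 5 splicing regulators were lowered. Quantile normalization gave 1 member raised and 4 lowered over 2-fold, a median of -0.16, 1 hnRNP relative raised and 3 core genes raised. With no filter there were 3 members raised, 1 hnRNP relative raised, 1 splicing regulator lowered and 2 core genes raised, and with 10 CPM in 5 samples 1 hnRNP relative lowered and 3 core genes raised. Sample quality weights, added after the data were seen, gave 15 members raised and 21 lowered, 5 lowered over 2-fold, and raised and lowered counts of 4 and 4, 5 and 8, 27 and 16, and 8 and 8 in the 4 lists. Over all genes the weights called 29% raised and 30.2% lowered. The other settings of this paragraph called 4% to 12.2% of all genes raised and 6.05% to 16.2% lowered.

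With the replicate block, 3 members were raised and 12 lowered, with 1 hnRNP relative and 2 core genes raised. Over all genes the block called 6.81% raised and 11.4% lowered. The study's methods mention repeated measures, but the labels do not say what same-numbered samples share, and of the 5 numbers only number 5 matched its own number best, so whether the samples were paired is not known. With the block and without replicate 1 of both groups, chosen after the data were seen, 8 members were raised at any size and 18 lowered at any size, of which 0 and 4 passed 2-fold. Over all genes 20.6% were raised and 22.5% lowered in that fit. There 3 splicing regulators were raised and 6 lowered, 20 core genes were raised and 10 lowered, and 3 partners were raised.

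Members whose fold changes turned sign were all uncalled in the main fit, and the cause was not tested. RBM8A passed the threshold in 1 of 22 alternatives, and there its sign was opposite to the main fit. HNRNPM passed in 1 too, with the sign of the main fit. With library size alone RBM15B was at -0.016, HNRNPD at -0.026, RBM22 at -0.035, HNRNPA2B1 at -0.081 and RBMS2 at -0.029. With upper-quartile factors HNRNPA2B1 was at -0.025. With limma-voom HNRNPAB was at 0.0018. Quantile normalization left RBM45 at 0.081, HNRNPD at -0.059, HNRNPA2B1 at -0.16, RBM4 at 0.055 and HNRNPM at -0.021. With no filter HNRNPA2B1 was at -0.0031. With 10 CPM in 5 samples RBM22 was at -0.0029 and HNRNPA2B1 at -0.031. With quality weights RBM8A was at 0.19, RBM15B at -0.035, HNRNPD at -0.0046, HNRNPA2B1 at -0.037, RBM17 at 0.11, RBMS2 at -0.074 and HNRNPC at 0.13. With the replicate block and without replicate 1 of both groups RBM8A was at 0.15, RBM15B at -0.036, HNRNPA2B1 at -0.018, RBM17 at 0.078, RBMS2 at -0.084 and HNRNPC at 0.069. Leaving out 1 sample at a time, RBM8A ranged from -0.26 to 0.16, RBM15B from -0.038 to 0.15, HNRNPA2B1 from -0.027 to 0.046, RBM17 from -0.14 to 0.089, RBMS2 from -0.091 to 0.17, HNRNPC from -0.079 to 0.096, RBM25 from -0.89 to 0.021, HNRNPAB from -0.16 to 0.042, HNRNPA3 from -0.11 to 0.034, RBM45 from -0.11 to 0.018, RBM4 from -0.16 to 0.016 and HNRNPUL1 from -0.13 to 0.015.

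Counts limit the precision for members with few reads, such as RBM20, RBM34, RBM43 and RBM38. The 4 h samples hold no second time or dose.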
